A study of Gallus gallus with 6 samples.

Results

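MicroRNA (miRNA) genes were examined for regions where the mCG level, the share of reads at CG sites that carry a methylated cytosine, differed between lens epithelial cells and lens fiber cells of the chick embryo. A gene was taken as a miRNA gene where its symbol begins with gga-mir or gga-let, or where its gene type is given as miRNA. The annotation placed 57 miRNA genes at a differentially methylated region (DMR), out of 3888 genes with a DMR in the promoter or gene body, which is 1.47% of those genes. They account for 62 of 7621 DMRs, or 0.814%. Of the 57 genes, 45 carry a gga-mir name, 0 carry a gga-let name, and 12 are known by an Ensembl identifier with the gene type miRNA.

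The study profiled lenses of White Leghorn embryos at embryonic day 13 by whole genome bisulfite sequencing. Epithelial cells and fiber cells were separated by microdissection, and 25 lenses were pooled for each biological replicate, with 3 replicates per cell type. No treatment or mutation distinguishes the groups, which are parts of the same normal lens, so cell type is the only difference between them that the labels name. The study also sequenced RNA of lens epithelial and fiber cells dissected at the same stage. Only DNA methylation was used here, so the purity of the dissected cells was not checked against marker transcripts.

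A miRNA is a short RNA that is cut from a hairpin precursor by DROSHA and DICER1 and then guides an Argonaute protein to complementary sites in messenger RNAs, which lowers their translation or stability. Many vertebrate miRNA hairpins lie inside introns of other genes and can be made from the transcript of that gene. Methylation of CG sites at a promoter or enhancer is commonly found where transcription is low, while methylation in the body of an active gene is common, and so a level by itself does not tell how much of a miRNA a cell makes. The lens grows by division of epithelial cells, which then elongate into fiber cells, fill with crystallins and lose their organelles.

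For each DMR the table gives 1 mean level for epithelial cells and 1 for fiber cells, pooled over the replicates, and every DMR in it had passed the test used to build it. Values of single replicates and read depths were not analysed here, so no test between the cell types was made, and counts and medians of the miRNA DMRs are set beside those of all DMRs as a description. The change is the fiber level minus the epithelial level in percentage points. The change divided by the mean Wald statistic per listed CG site gives an approximate standard error for a single site. It had a median of 3.50 points and ran from 1.59 to 5.16 points over the 62 DMRs. The DMRs were called on that statistic, whose mean was at least 4.58 in size at each of them. The error is therefore limited by the size of the change and is only a rough guide to precision.

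Most miRNA DMRs carried more mCG in fiber cells than in epithelial cells. A gain toward fiber cells was seen at 54 DMRs and a loss at 8, so 87.1% were higher (95% Wilson interval 76.6 to 93.3, which covers counting error only), beside 86.6% of all DMRs, and 12.9% were lower, beside 13.4% of all DMRs. A change of at least 20 points was found in 37 of the 62, or 59.7%, beside 59.5% of all DMRs. Averaged over the DMRs of each gene, 49 of the 57 miRNA genes were higher in fiber cells, or 86.0%, beside 84.8% of all genes. These shares lie close to those of the whole table, so the direction of change is not a result about miRNA genes. The median size of the change was 21.3 points at miRNA DMRs and 22.0 points over all DMRs. The median epithelial level of the miRNA DMRs was 35.2% and that of all DMRs was 30.5%. The 95% interval of the first median, 24.8 to 41.6, treats the DMRs as independent.

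Within the group, the 54 gains ran from 7.80 to 38.3 points with a median of 21.2, and the 8 losses ran from -36.6 to -11.4 with a median of -24.5. The DMRs were spread over 22 of the 34 chromosomes that hold a DMR, with 7 on chromosome 1 and 6 on chromosome 10. How all DMRs divide among the chromosomes was not computed, so whether these counts are high cannot be told. Of the genes, 51 had 1 DMR, 5 had 2 and gga-mir-1558 had 3, and no gene had DMRs of both directions. The plot of levels by miRNA gene shows how far the starting level varied, from 3.21% at gga-mir-184 to 71.1% at gga-mir-1585.

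**Figure D1:**
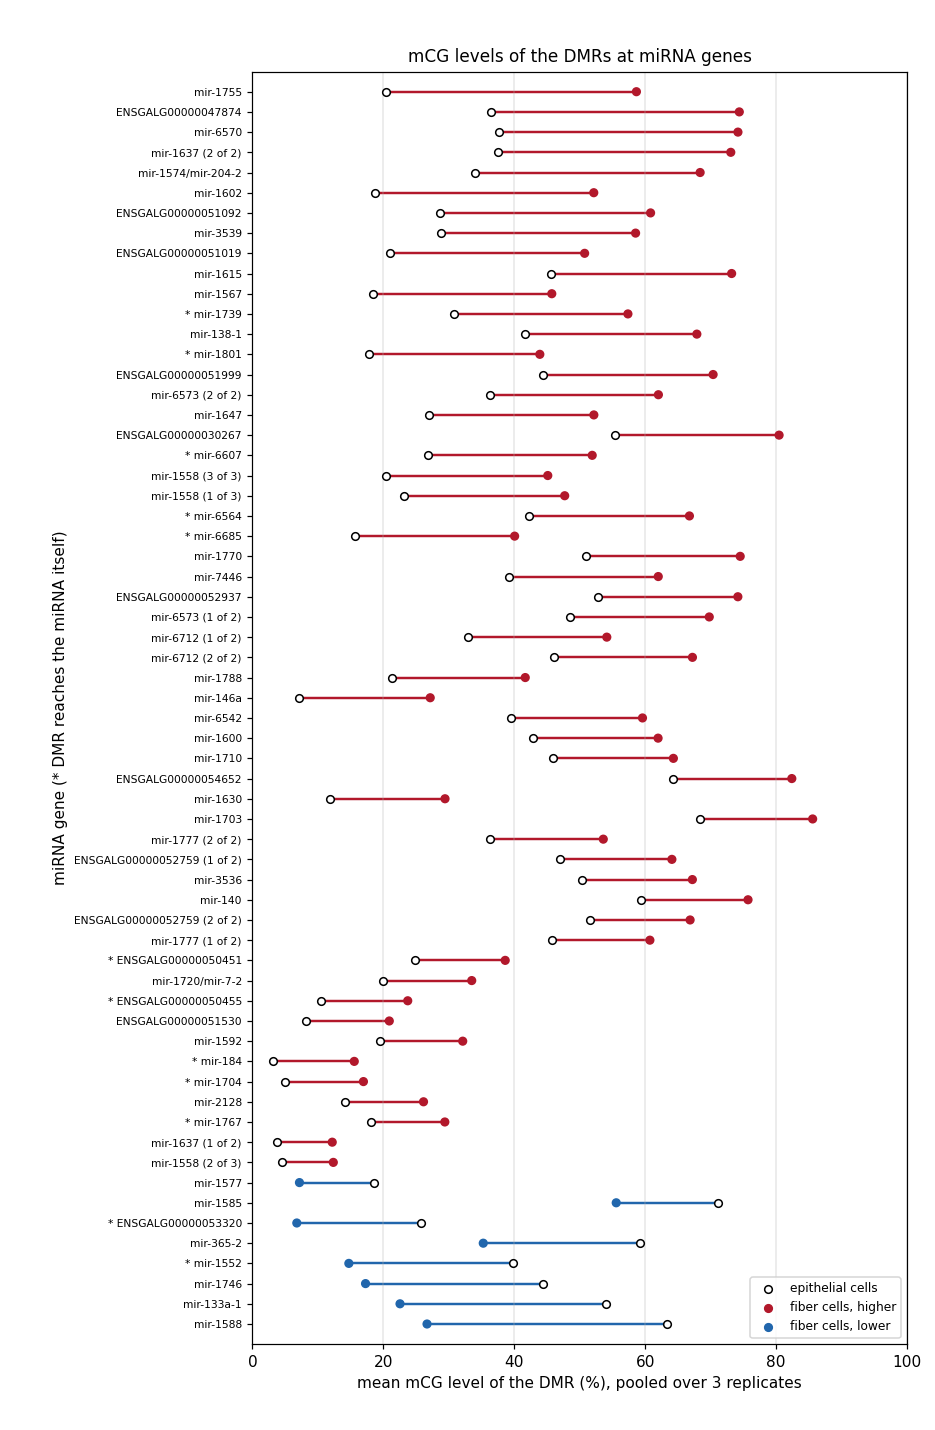
Mean mCG level (%) of each of the 62 miRNA DMRs in epithelial cells (open circles) and fiber cells (filled circles), ordered by the change, where numbers in brackets count the DMRs of 1 gene along the chromosome and an asterisk marks a DMR that reaches the miRNA itself. The 54 red lines run to the right, up to 38.3 points for gga-mir-1755, and the 8 blue lines run to the left, as far as -36.6 points for gga-mir-1588.

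Position relative to the miRNA was described next. In 12 DMRs the region overlapped the short exon of the miRNA gene itself, and in the other 50 it lay only in the window that the annotation calls the promoter, which reaches up to 2 kb upstream of the annotated start. For an intronic miRNA this window is part of the surrounding gene, and it is not necessarily where transcription begins. The DMRs that reached a miRNA had a lower median epithelial level, 21.5%, than the promoter DMRs, 37.6%. Their directions were alike, with 10 gains and 2 losses against 44 gains and 6 losses. The median size of the change was 21.7 points in the first set and 21.3 in the second. The 12 regions were also denser, with a median of 14.3 listed CG sites per 100 bp against 10.7. A CpG island shore was annotated at 4 of the 12, or 33.3%, against 7 of the 50, or 14.0%. For islands themselves the order was reversed, with 1 of the 12, or 8.33%, against 7 of the 50, or 14.0%. Island or shore together made up 33.3% against 26.0%. The 95% intervals of the median epithelial levels were 10.5 to 30.8 and 28.6 to 45.6. They treat DMRs as independent, although all levels come from the same pools and some DMRs lie close together. Their overlap therefore decides nothing about a difference. No difference between these 12 and 50 regions was tested.

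A DMR is called whole-gene here where it was annotated to the start, the exon and the end of the miRNA. Full coverage is inferred from these labels, since positions of the miRNA genes were not compared. This held in 5 cases. One of these is gga-mir-184, whose mouse counterpart is among the most abundant miRNAs of lens epithelium and cornea. Its DMR at chr10:20409540-20409800 (galGal6) holds 30 listed CG sites in 261 bp on a CpG island shore. Epithelial cells stood at 3.21% and fiber cells at 15.6%, which is 12.3 points more. That is the lowest epithelial level of all miRNA DMRs, while the relative increase of 4.85 times is the highest among them. The gene therefore went from nearly unmethylated to a level that is still lower than that of most miRNA DMRs in either cell type. Of the 4 other DMRs within 10 kb, all gained mCG in fiber cells as well, and the nearest of them, 3898 bp away, rose by 17.4 points.

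A second whole-gene DMR lies at gga-mir-1801 (chr8:4200488-4201847), and it carries the largest summed test statistic of the miRNA DMRs, ranking as number 3 of all 7621. It is 1360 bp long with 194 listed CG sites on a CpG island and its shore. The DMR is annotated to the promoter of DDR2, a collagen receptor tyrosine kinase. In RefSeq (assembly GRCg7b) the miRNA lies inside DDR2. The level rose from 17.9% to 43.9%, or 26.0 points. Both other DMRs of DDR2 rose too, by 11.8 and 19.7 points, so all DMRs of this gene had the same direction.

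The other whole-gene gains started low and stayed low. At gga-mir-1704, in an intron of SNED1, which encodes an extracellular matrix protein, the level went from 4.92% to 17.0%, and all 8 other DMRs of SNED1 gained between 15.1 and 26.6 points. At gga-mir-1767 (chr3:42979504-42979697) it went from 18.2% to 29.4%, with no other gene annotated there and no further DMR within 300288 bp. The only whole-gene loss was at gga-mir-1552 (chr1:134912374-134912547), which lies in an intron of MAP4K4, a kinase of stress signaling. There the level fell from 39.8% to 14.7%, a change of -25.0 points, while both other DMRs of MAP4K4 gained, by 16.3 and 20.1 points.

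The 7 remaining DMRs reached 1 end of a miRNA. Gains were found at gga-mir-1739 (30.8% to 57.4%), at gga-mir-6607 in an intron of the myosin phosphatase subunit gene PPP1R12B (26.9% to 51.9%), at gga-mir-6564 in introns of CTSZ and GNAS (42.3% to 66.8%) and at gga-mir-6685 in an intron of MGA (15.7% to 40.1%). Smaller gains were found at ENSGALG00000050451 (24.8% to 38.6%) and ENSGALG00000050455 (10.5% to 23.7%). These 2 DMRs hold 26.6 and 24.3 listed CG sites per 100 bp, where the median of all DMRs is 10.3, and they moved by only 13.8 and 13.2 points. The loss in this set was at ENSGALG00000053320 in an intron of IQSEC1, an exchange factor for ARF GTPases, where the level went from 25.8% to 6.78%, or -19.0 points.

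**Figure D2:**
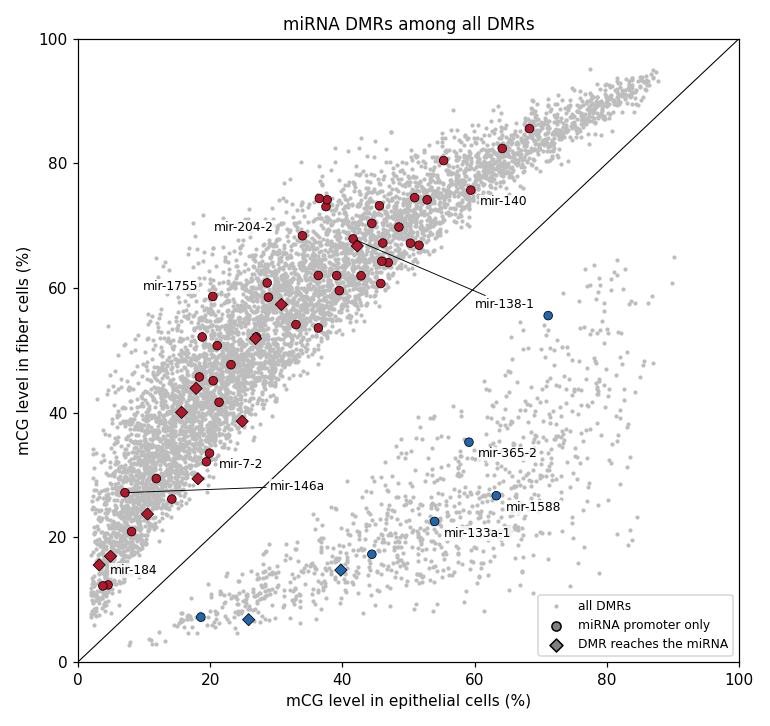
mCG level in epithelial cells (x axis, %) and fiber cells (y axis, %) of all 7621 DMRs in grey and of the 62 miRNA DMRs in color, red for gains and blue for losses, with diamonds where the DMR reaches the miRNA and circles where it lies only in the promoter window. The colored points spread through the grey cloud on both sides of the diagonal, with gga-mir-184 near the origin at 3.21% and 15.6%.

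Of 105 names of miRNAs with known roles in animals that were looked up, 8 matched a gene with a DMR, 1 gene each. How many of these names have a gene without a DMR was not counted, so whether 8 is many or few cannot be told. Their DMRs were 6 gains and 2 losses, or 75.0% gains, beside 88.9% of the other 54 miRNA DMRs and 86.6% of all DMRs, shares that over 8 regions were not tested. These 8 regions are described by role, beginning with those of the eye. The DMR of gga-mir-204-2, at chr10:6137924-6139171, is shared with gga-mir-1574 and lies in TRPM1, a cation channel gene of retinal bipolar cells and pigment cells. In fish and mammals miR-204 takes part in eye and lens development, and in mammals TRPM1 hosts its family member miR-211. The region is 1248 bp long but has only 21 listed CG sites, or 1.68 per 100 bp, the lowest density of the miRNA DMRs and number 37 from the bottom of all 7621. Epithelial cells had 34.0% and fiber cells 68.4% there, a gain of 34.4 points.

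This gain was shared along TRPM1. A DMR 212 bp away, at lower coordinates, went from 24.0% to 61.5%, or 37.6 points. A DMR annotated to a promoter and a 5' untranslated region of TRPM1, and also to an exon and intron, went from 7.87% to 43.9%, or 36.1 points. DMRs in introns of TRPM1 lie on both sides of it, so it need not mark the outermost start of the gene. The remaining DMRs of the gene gained 22.6, 35.4 and 29.7 points, and in all 6 the fiber level was higher. The first of these in coordinate order was nearly unmethylated in epithelial cells, at 2.23%, and reached 24.9% in fiber cells.

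Of the neural miRNAs, gga-mir-7-2 shares its DMR with gga-mir-1720 at chr10:13577401-13577552, in an intron and promoter window of the nuclease gene AEN. The level went from 19.9% to 33.5%, a modest 13.6 points, and the other DMR of AEN gained 14.2. In mouse, miR-7 acts on Pax6, a master regulator of eye development. The DMR of gga-mir-138-1, a miRNA best known from neurons, lies at chr2:40678042-40678382 in the long noncoding RNA gene ENSGALG00000050387. It rose from 41.6% to 67.9%, or 26.3 points. The neighbouring DMRs of that noncoding gene did not all follow: 2 intronic DMRs fell by 27.4 and 33.0 points, and the 1 in the promoter rose by 9.88.

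The muscle miRNA gga-mir-133a-1 had the second largest loss. Its DMR at chr2:102516368-102516741 lies in an intron of MIB1, a ubiquitin ligase that activates Notch ligands, and the level fell from 54.0% to 22.5%, a change of -31.4 points. No other DMR was annotated to MIB1, and the nearest one on the chromosome was 366279 bp away. In RefSeq (assembly GRCg7b) MIR1-2, its usual partner in muscle, lies within 10 kb of it, and no DMR of the table is annotated under that name. Among the other conserved families, gga-mir-365-2 (chr18:6429394-6429524) lost mCG, from 59.2% to 35.3% or -23.9 points. No other gene was annotated at its DMR, and in GRCg7b the miRNA lies inside RAB11FIP4.

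Gains were found at gga-mir-140 and gga-mir-146a. The first is a cartilage miRNA within WWP2, a ubiquitin ligase gene, and its DMR at chr11:19066698-19067050 went from 59.4% to 75.7%. That gain of 16.3 points was smaller than those of the 3 other WWP2 DMRs, which rose by 21.4 to 27.8. The second restrains NF-kB signaling in immune cells, and in GRCg7b it lies inside LOC121106732. No other protein-coding or noncoding gene of the table was annotated at its DMR, at chr13:8518780-8519075. The level there went from 7.11% to 27.2%, or 20.1 points. In relative terms this was an increase of 3.82 times, next to the 4.85 times of gga-mir-184 among the family members.

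The 8 losses were then described as a set. Besides gga-mir-1552, gga-mir-133a-1, gga-mir-365-2 and ENSGALG00000053320, they comprised gga-mir-1588, gga-mir-1746, gga-mir-1585 and gga-mir-1577. The largest was at gga-mir-1588 (chr14:14469685-14469904), where the level went from 63.3% to 26.7%, or -36.6 points. It lies in an intron of ENSGALG00000009205, the place where GRCg7b has ANKFN1L. That gene has 12 other DMRs, of which 11 gained between 11.9 and 24.8 points and 1 lost, at -38.5. The 2 DMRs within 10 kb of the miRNA DMR were both gains, at 21.6 and 15.6 points, so a deep loss sat between gains.

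The same arrangement was seen at the DMR of gga-mir-1585 (chr19:8985644-8985822), in an intron of MSI2, an RNA-binding Musashi protein. Its level fell from 71.1% to 55.6%, or -15.6 points, on a CpG island. MSI2 is dense in DMRs, with 28 others, and 26 of these gained, with a median over the 28 of 21.4 points. The 2 other losses in MSI2 were larger than that at the miRNA, at -19.4 and -38.0 points, and lay at higher coordinates. At gga-mir-1746 (chr20:8645324-8645626), in the long noncoding RNA gene ENSGALG00000046924, the level fell from 44.5% to 17.3%, or -27.2 points. Its 4 other DMRs were split, 2 at -41.0 and -32.4 and 2 at 21.5 and 34.4.

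The smallest loss was at gga-mir-1577 (chr9:5617831-5617996), on a CpG island, where the level fell from 18.6% to 7.18%, a change of -11.4 points. This DMR also lies in the promoter of ENSGALG00000028415, which has no other DMR. In GRCg7b the miRNA lies inside CAB39 and HES6. Starting levels of the 8 losses ran from 18.6% to 71.1% with a median of 49.2%, and their fiber levels from 6.78% to 55.6% with a median of 19.9%. The gains started lower, at a median of 31.9%, and ended at a median of 58.6%. Over all DMRs the median starting levels were 54.3% for losses and 27.6% for gains.

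The 10 largest gains at DMRs included gga-mir-204-2 and 9 others. The greatest was at gga-mir-1755 (chr9:15773370-15773918), in an intron of EIF4E2, which encodes a cap-binding protein that represses translation. There the level went from 20.4% to 58.7%, or 38.3 points, over 12 listed CG sites in 549 bp. ENSGALG00000047874, with no other gene annotated at its DMR, went from 36.5% to 74.4%, or 37.9 points. The DMR of gga-mir-6570, in an intron of the Notch coactivator gene MAML2, went from 37.7% to 74.2%, or 36.5 points, and all 20 other DMRs of MAML2 gained, by 14.5 to 41.6 points.

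Next in size was the second DMR of gga-mir-1637, in an intron of the T-type calcium channel gene CACNA1G, which went from 37.5% to 73.1%, or 35.6 points. The DMR of gga-mir-1602, in the LIM-domain-binding gene LDB2, went from 18.8% to 52.1%, or 33.4 points, and was 1 of only 2 miRNA DMRs that overlap a repeat. In ZBTB7C, a gene for a zinc finger protein, the DMR of ENSGALG00000051092 went from 28.6% to 60.8%, or 32.2 points, and was the only miRNA DMR on chromosome Z. The remaining ones among the 10 were gga-mir-3539 in ARHGAP31, a GTPase-activating protein gene (29.7 points), ENSGALG00000051019 at the 5' end of the collagen gene COL3A1 (29.7 points) and gga-mir-1615 in the protein kinase C gene PRKCB (27.6 points).

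The size of the change and the summed statistic did not rank the regions alike. The 5 largest statistics belonged to gga-mir-1801 (1901), to ENSGALG00000052759 (672) and ENSGALG00000050455 (616), to gga-mir-1788 (459) and to gga-mir-6573 (398). Of these only gga-mir-1801 and gga-mir-6573 changed by more than 21 points, while the largest change, at gga-mir-1755, had a statistic of 93.1, number 7560 of all DMRs. The statistic is a sum over sites. The DMR of gga-mir-1788 (chr7:22352056-22352782) covers the 3' end of the lens crystallin gene CRYBA2 on a CpG island shore, and rose from 21.3% to 41.7%, or 20.3 points. In GRCg7b this miRNA lies inside FEV, with MIR375 within 10 kb.

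**Figure D3:**
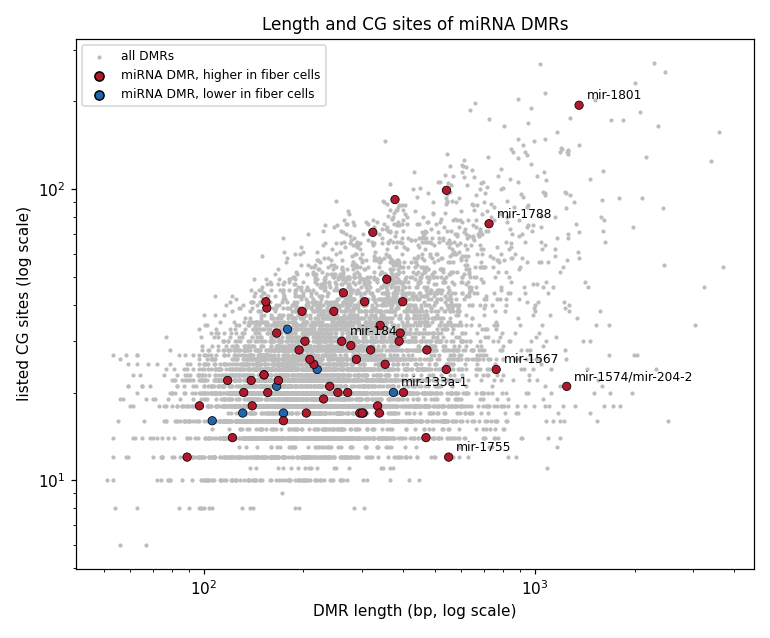
Length (bp, log scale) and number of listed CG sites (log scale) of all 7621 DMRs in grey and of the 62 miRNA DMRs in red where fiber cells were higher and blue where they were lower. The DMRs of gga-mir-1801 and gga-mir-204-2 are of like length, 1360 and 1248 bp, but hold 194 and 21 listed CG sites.

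In length, density of CG sites and share on islands or shores, the miRNA DMRs were close to all DMRs. Their median length was 257.5 bp (range 89 to 1360) beside 236 bp, and their median density was 11.5 listed CG sites per 100 bp beside 10.3. A CpG island was annotated at 8 of them, or 12.9%, beside 12.7% of all DMRs, and a shore at 11, or 17.7%, beside 18.8%. The share with a repeat was lower, at 2 regions or 3.23%, beside 6.76%, and this was not tested. An epithelial level under 10% was found at 6, or 9.68%, beside 11.6%. Compared with the 832 DMRs in promoters of protein-coding genes, whose median change was 18.2 points and of which 20.0% lay on an island, the miRNA DMRs had a lower share on islands and a larger median change, and neither difference was tested. Of the 50 promoter-only miRNA DMRs 7 lay on an island, or 14.0%.

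Where a miRNA gene had several DMRs, they could differ in level while having the same direction. At gga-mir-1637, the first DMR (chr18:10256314-10256528) was at 3.76% in epithelial cells and 12.2% in fiber cells, and the second, only 1206 bp further on, was at 37.5% and 73.1%. The changes were 8.43 and 35.6 points, with approximate single-site errors of 1.68 and 4.64 points. Those errors are not errors of a whole region, and the difference between the changes was not tested. The DMRs of gga-mir-1558 lie in ENSGALG00000001536. The middle DMR, at 4.55% and 12.4%, sat 730 bp from a DMR at 23.2% and 47.7%. On its other side, 110 bp away, was a DMR at 20.5% and 45.1%. The flanking changes, 24.6 and 24.7 points, were nearly equal, and the middle change was 7.80 points. By contrast both DMRs of gga-mir-6712, 162 bp apart on an island in OLFML2A, changed by 21.2 and 21.1 points, from 33.0% and from 46.1%. The DMRs of gga-mir-1777 (14.9 and 17.2 points), of ENSGALG00000052759 (17.1 and 15.3 points) and of gga-mir-6573 (21.2 and 25.7 points) were also alike within each gene. Their gaps were 80, 185 and 1353 bp. The DMR call smooths over neighbouring sites, so levels across short gaps may share reads.

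Many of these miRNAs lie in other genes, so the rows that the same DMR has for other genes were listed. A total of 48 of the 62 DMRs lay in the body of another gene, 27 of them in introns only and 21 at an exon or untranslated region. A further 3 lay in the promoter of another gene, and 11 had no other gene. Over the whole table, 6253 of 7621 DMRs lay in the promoter or body of a protein-coding gene. The share of all DMRs in a gene body, or in introns only, was not computed. These counts are therefore not a result about miRNA DMRs. The strand of the genes was not compared, and a gene that overlaps the DMR is not thereby shown to make the miRNA. The 50 pairs of a miRNA DMR and an overlapping gene involve 43 genes, of which 39 are protein-coding, 3 are long noncoding RNA genes and 1 is a pseudogene.

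Of these 43 genes, 28 had 149 further DMRs, and 130 of the 149, or 87.2%, were higher in fiber cells, beside 86.6% of all DMRs. In the 34 pairs with further DMRs, all the others had the direction of the miRNA DMR in 17, some had it in 13 and none had it in 4. The pairs are not independent, since a gene with several miRNA DMRs counts once for each. These genes were ZNF638, OLFML2A, CACNA1G, GPATCH8 and ENSGALG00000001536, and all their miRNA DMRs were gains. For the 29 pairs in which the miRNA DMR gained, those counts were 17, 9 and 3. For the 5 in which it lost, they were 0, 4 and 1. The loss at gga-mir-133a-1 is not among these 5 pairs, since it is the only DMR of MIB1. These counts stand beside a whole table in which 86.6% of DMRs are gains, and they were not tested.

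Among the genes with uniform gains were MAML2 with 20 other DMRs, SNED1 and GPATCH8 with 8 each, TRPM1 with 5, and WWP2, TRIM9 and CHD2 with 3 each. The GPATCH8 DMRs ran from 9.37 to 26.6 points around the changes of 21.2 and 25.7 at gga-mir-6573. In some genes the miRNA DMR gained and the only other DMR lost. Over all DMRs the median gain was 21.4 points and the median loss -27.9, so a gain and a loss usually lie far apart. In ARHGAP31 the change was 29.7 points at gga-mir-3539 and -30.1 at the other DMR, which lay 14027 bp away. In GNAS, the gene of the stimulatory G protein alpha subunit, it was 24.5 at gga-mir-6564 and -34.4 at the other, and in ZBTB7C it was 32.2 at ENSGALG00000051092 and -44.1 at the other. AUTS2, a neurodevelopmental gene, was mixed, with 13 gains and 5 losses beside the gain of 27.4 points at gga-mir-1567.

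**Figure D4:**
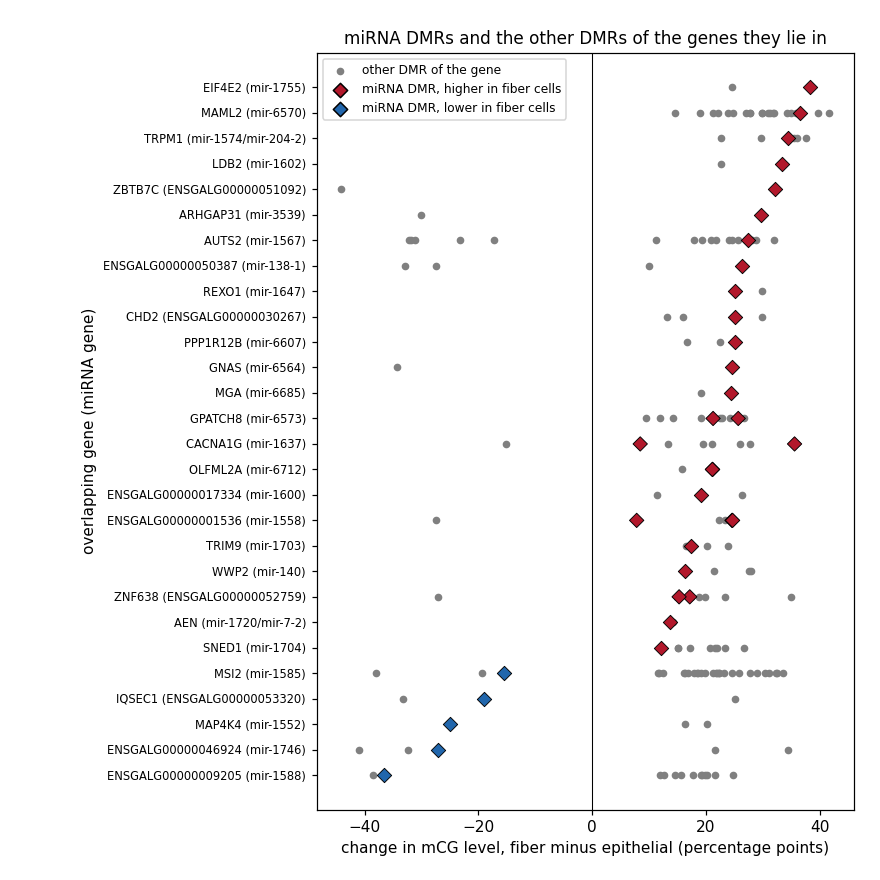
Change in mCG level (fiber minus epithelial, percentage points) of each miRNA DMR (diamonds, red for gains and blue for losses) and of the other DMRs of the gene it lies in (grey dots), for the 28 genes that have other DMRs. The red diamonds mostly sit among dots to the right of 0, and the 5 blue diamonds sit in genes with at least 1 dot on the right, as in MSI2, where 26 of 28 dots are gains.

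Neighbouring DMRs were counted by distance as well. Another DMR lay within 10 kb of 30 miRNA DMRs, and for 23 of these 30, or 76.7%, all such neighbours had the direction of the miRNA DMR. Leaving out neighbours that belong to the same miRNA gene, which count each other, it was 19 of 26, or 73.1%. Over all DMRs with a neighbour this near, it was 3612 of 4296, or 84.1%, and the difference was not tested. Exceptions were found at losses, such as gga-mir-1585 with 3 neighbours that gained and gga-mir-1746 with 1, and also at gains, such as gga-mir-138-1, whose neighbour 8635 bp away fell by 27.4 points.

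Finally, the genes that make and use miRNAs were looked up from a list of 36 symbols. In it TUT4 appears also as ZCCHC11, and TUT7 also as ZCCHC6. A DMR was annotated to 9 symbols, each a separate gene, and none to the other 27. Among the 27 were the nucleases DROSHA and DICER1, the DROSHA partner DGCR8 and the Argonaute gene AGO2. The share of all annotated genes that have a DMR was not computed, so whether 9 is many or few cannot be told. For the 27 symbols nothing can be said of smaller differences, and a gene listed under another name would have been missed. The 9 genes had 19 DMRs, of which 18 gained and 1 lost, or 94.7% gains beside 86.6% of all DMRs. Their median signed change was 19.3 points, beside 19.9 over all DMRs.

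Of the Argonaute genes, whose proteins hold the mature miRNA, 3 that neighbour each other on chromosome 23 each had 1 gain. AGO3 went from 8.22% to 24.1%, AGO1 from 46.8% to 67.4% and AGO4, in its 3' untranslated region, from 55.4% to 74.7%. TNRC6C, an Argonaute partner in silencing, had 3 gains of 13.2 to 26.7 points, of which 2 touched a promoter window. DIS3L2, an exonuclease that degrades uridylated let-7 precursors in mammals, had 7 DMRs, all in introns, with gains from 16.2 to 32.4 points.

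The editing enzyme gene ADAR had 3 gains of 17.7 to 22.1 points from starting levels of 7.41% to 60.8%. The DROSHA cofactor gene DDX17 rose by 9.57 points from 82.3%, and HNRNPA1, whose protein binds the precursor of miR-18a in human cells, rose by 13.1 points from 70.5%. The single loss was in an intron of CNOT6L, a deadenylase subunit gene, where the level fell from 46.1% to 15.5%, or -30.6 points. It was thus larger in size than 17 of the 18 gains.

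**Figure D5:**
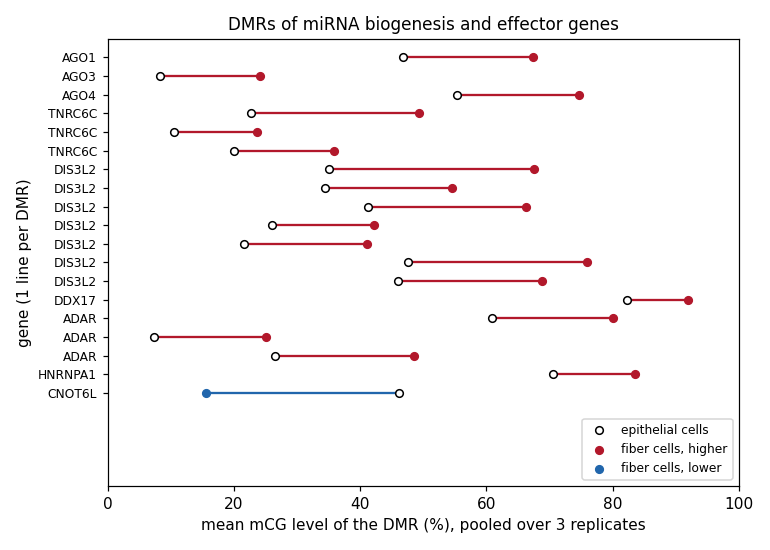
Mean mCG level (%) of the 19 DMRs of the 9 miRNA biogenesis and effector genes in epithelial cells (open circles) and fiber cells (filled circles), with 1 line per DMR. The 18 red lines end at a higher level in fiber cells, and the blue line of CNOT6L runs from 46.1% to 15.5%.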

How the data were processed

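Whole genome bisulfite sequencing libraries of 3 lens epithelial cell and 3 lens fiber cell replicates were analysed from a table of mCG DMRs. Per the labels and the methods, the authors used CASAVA, trimmed reads with Trimmomatic, aligned them to galGal6 with Bismark and called DMRs with DSS, a beta-binomial test with smoothing; versions are not given in the sources used here. The deposited mCG levels are fractions, 1 mean per cell type pooled over replicates, so how many reads support a level at a DMR is unknown here, and smoothing makes neighbouring sites share reads. The deposited area statistic is a score that sums Wald statistics over CG sites. The authors' column of differences was used only as a check on the recomputed change. Whether the table counts the cytosines of both strands of a CG as separate sites is not stated.

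Lines were collapsed from 13180, of which 551 were exact repeats, to 7621 DMRs. Levels were multiplied to percent and subtracted, with pandas 2.3.3 and NumPy 2.4.6 under Python 3.11.15. Wilson intervals for shares and order-statistic intervals for medians (95%) used SciPy 1.17.1, and figures matplotlib 3.10.9. The calculations were tested on simulated data with known answers. Groups came from the labels. RefSeq names (GRCg7b) matched 41 of the 45 named miRNA genes, and that assembly was used only to tell which genes lie inside or within 10 kb of each other; none of its coordinates are printed. Text names every miRNA gene with a DMR over its exon, every loss, the 10 largest gains, the 5 largest statistics, the family members, and the genes that overlap these; other genes named were chosen after their values were seen. Members and lists were chosen with earlier results of these data known. Alternatives varied the members, a minimum change of 20 points, the statistic, clusters under 10 kb, the annotation and the weights. No miRNA sequences were used here.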

Additional observations from a re-analysis of the deposited data

How the results depend on the processing

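Of 32 alternative settings, 27 left the value inside the interval of the reported one (for the number of genes, within 1.5 times). Most settings are subsets of the same miRNA DMRs, so the tally is not an independent check. Weighting by CG sites could not move the share of genes with a higher average, since no gene had DMRs of both directions. The share of gains ran from 83.3% to 90.9% over them. With a minimum change of 20 points the median size of the change was 25.7 points and 35 genes were left, since that setting removes the smaller changes. With the area statistic at or above the median of all DMRs, 27 genes were left. Restricting to DMRs over the miRNA exon left 12 genes and moved the median epithelial level from 35.2% to 21.5%; the cause was not tested. That setting holds 12 DMRs, which are also denser in listed CG sites than the others. No paired analysis was possible because the levels are pooled over the replicates, and for the same reason no replicate could be left out. The unknown read depth at each DMR limits every level, and regions that missed the DMR call were not analysed here.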

Other observations

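Some other noncoding RNA genes had a DMR, and none was taken as a miRNA gene. Those named uc_338 and SOX2OT_exon4 have the gene type misc_RNA, which does not tell their size. A DMR annotated to the start, exon and end of the small nucleolar RNA gene SNORA5 fell from 61.2% to 25.7%, or -35.5 points. The DMR upstream of a gene named 5S_rRNA rose from 7.23% to 34.2%. Both genes named uc_338 had a gain, of 35.8 points from 9.01% and of 20.6 points from 10.7%. The conserved exon SOX2OT_exon4 had 3 losses, of -12.6, -25.0 and -9.22 points, in neighbouring DMRs. The gene mascRNA-menRNA, the small RNA of the MALAT1 and NEAT1 type, had 3 gains of 11.6, 21.1 and 10.2 points from 3.51%, 46.5% and 71.9%. Long noncoding RNA genes had 645 DMRs, of which 538 were gains and 107 losses, or 83.4% gains beside 86.6% of all DMRs. No explanation of these values was tested.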
